A study of Alligator mississippiensis with 4 samples.

Results

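Lumican (LUM), dermatopontin (DPT) and the small leucine-rich proteoglycans (SLRPs) are secreted proteins of the dermal matrix. The set was chosen by name, as the rows of the deposited table under the symbols LUM, DPT, DCN, BGN, FMOD, OGN, KERA, PRELP, ASPN and EPYC. Of these 10 symbols, 7 had a row among the 10466 rows of the table, and FMOD, ASPN and EPYC had none under that symbol in the table analysed here. The study collected dermis of overlapping scales from alligator embryos at Es22 (bud stage) and Es19 (placode stage), from dorsal and ventral skin. Embryos came from untreated fertilized eggs, and dermis was freed of epidermis in CMF solution. The labels give 1 library for each of Es22 dorsal, Es22 ventral, Es19 dorsal and Es19 ventral dermis, with no replicate and no number of embryos, while the methods of the study state that replicate samples were prepared. Region and stage are thus each represented by a pair of libraries.

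SLRPs have a core of leucine-rich repeats that lies along collagen fibrils and limits how thick the fibrils grow and how they are spaced. DCN (decorin) and BGN (biglycan) carry chondroitin or dermatan sulphate chains, LUM, KERA (keratocan) and FMOD (fibromodulin) carry keratan sulphate in some tissues, and PRELP links collagen to basement membranes. DPT is not an SLRP but a small tyrosine-rich protein that binds decorin and collagen and promotes fibril assembly. In mice, loss of LUM gives fragile skin and a cloudy cornea, and loss of DPT gives thin, stretchable skin.

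Values are TMM-normalized CPM, that is, reads of a gene scaled to a library of standard size, as the authors deposited them, and whole reads were recovered from them. The 4 libraries held 13220854 reads in Es22 dorsal, 10722075 in Es22 ventral, 11701506 in Es19 dorsal and 11581288 in Es19 ventral dermis. CPM is not corrected for transcript length, so levels are compared between libraries and not between genes. The tissue is named as labelled. Of 12 fibroblast markers 8 had a row, and COL3A1, PDGFRB, TWIST2 and TCF21 had none under their symbols. The type I collagen gene COL1A1 took from 6.31% to 19.2% of the reads of a library. VIM stood at 2451 to 4676 CPM and PRRX1 at 28.2 to 54.2 CPM, while PDGFRA stood at only 2.10 to 3.84 CPM. Epidermal markers, of which 8 of 20 had a row and none stood at 0 reads, summed to 1365 and 633 CPM in Es22 dorsal and Es22 ventral dermis, against 386 and 377 CPM at Es19. Most of the Es19 sums was JUP, a junction protein at 349 and 337 CPM there, and without it the other 7 summed to 917 and 223 CPM in Es22 dorsal and Es22 ventral dermis, against 36.5 and 40.2 CPM in Es19 dorsal and Es19 ventral dermis.

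LUM was highest in dorsal dermis and at the bud stage. It stood at 11123 CPM in Es22 dorsal and 5351 CPM in Es22 ventral dermis, and at 3917 CPM in Es19 dorsal and 1844 CPM in Es19 ventral dermis. It took 0.876% of the reads of the Es22 dorsal library (exact 95% binomial interval 0.871% to 0.881%) and 0.235% of those of the Es19 ventral library (0.232% to 0.238%). Dorsal dermis was above ventral dermis at both stages, and both Es22 libraries were above both Es19 libraries. The dorsal to ventral ratio was 2.08 at Es22 (95% interval 2.06 to 2.10) and 2.12 at Es19 (2.09 to 2.16). The Es22 to Es19 ratio was 2.84 in dorsal (2.81 to 2.87) and 2.90 in ventral dermis (2.86 to 2.94). All such intervals come from the exact binomial distribution of recovered reads and hold counting error alone, since each region and stage had 1 library. PCR copies are not independent molecules, so the intervals may be too narrow even for counting error.

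DPT had the opposite regional order and the same order of stages. It stood at 43.6 CPM in Es22 dorsal and 210.5 CPM in Es22 ventral dermis, and at 15.4 CPM in Es19 dorsal and 68.4 CPM in Es19 ventral dermis. Both ventral libraries were above both dorsal libraries, so that the Es19 ventral value exceeded the Es22 dorsal value. The dorsal to ventral ratio was 0.207 at Es22 (95% interval 0.187 to 0.230) and 0.225 at Es19 (0.192 to 0.262), which is 4.83-fold and 4.44-fold lower in dorsal dermis. The Es22 to Es19 ratio was 2.83 in dorsal (2.39 to 3.36) and 3.08 in ventral dermis (2.85 to 3.32). DPT spanned 13.7-fold from its lowest to its highest library, the widest range of the 7 genes, and LUM 6.03-fold.

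**Figure D1:**
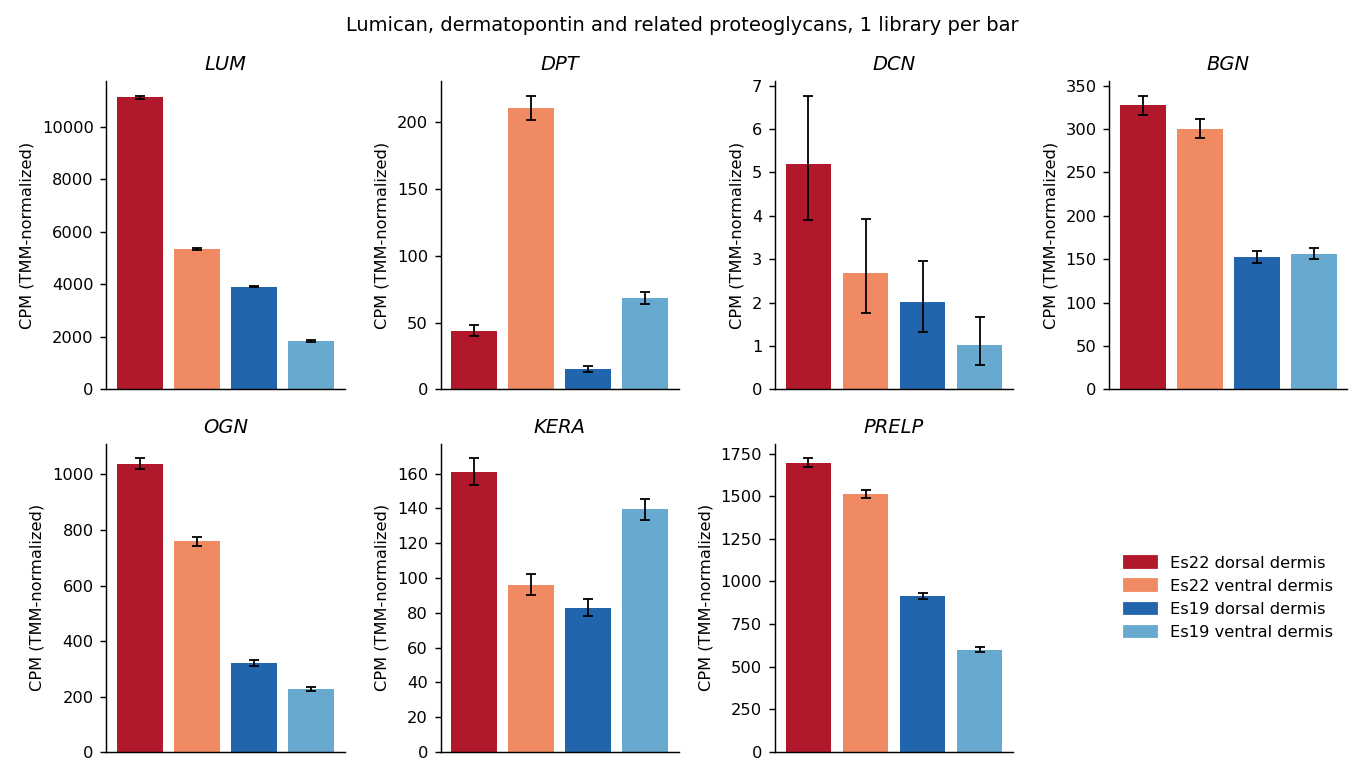
TMM-normalized CPM (linear axis from 0, its own scale for each gene) of the 7 genes, 1 bar per library, with exact 95% Poisson intervals for counting error. LUM stands at 11123, 5351, 3917 and 1844 CPM in Es22 dorsal, Es22 ventral, Es19 dorsal and Es19 ventral dermis, while DPT is highest in the ventral libraries (210.5 and 68.4 CPM).

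The set was compared between regions and stages with limma on log2(CPM + 1), fitted on the 10236 rows whose mean reached 1 CPM, with region and stage as terms. All 7 genes passed this filter. With 4 libraries and both terms, 1 residual degree of freedom is left. Error is read from how far the paired comparisons of a gene differ, pooled with a prior variance set by rows of similar CPM. A standard error thus depends on the level of a gene as well as on its own comparisons. For LUM the region differences were 1.06 and 1.09 at Es22 and Es19, yet the standard error was 0.29. The p-values therefore do not measure the spread between animals. Differences on the log2(CPM + 1) scale understate the change of genes with low CPM.

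Between regions, DPT was the only 1 of the 7 genes called by limma at an adjusted p of 0.05, beside 0.234% of all rows tested. Its log2 difference, dorsal minus ventral, was -2.16 (standard error 0.16, Benjamini-Hochberg adjusted p = 0.026), and edgeR's quasi-likelihood test gave an adjusted p of 0.0026, with the same 1 gene called beside 0.547% of all rows. LUM had a log2 difference of 1.07 (standard error 0.29, limma adjusted p = 0.39, edgeR adjusted p = 0.21) and was not called, although its dorsal value was above its ventral value in 2 of 2 stages. By a rule of size, a difference of at least 2-fold with one sign at Es22 and Es19, LUM was higher in dorsal dermis, beside 0.596% of all rows, and DPT was lower, beside 0.469% (1.06% in either direction). By any amount, 4 of the 7 (LUM, DCN, OGN and PRELP) were higher in dorsal dermis at both stages, beside 24.5% of all rows, and 1 (DPT) was lower, beside 25.3%. The limma call of DPT was lost when libraries were rescaled to their upper quartile (adjusted p = 0.073), without stage as a term and without an intensity trend (adjusted p = 0.090). Each of these fits called 0 of all rows tested, so the loss is not particular to DPT. With any 1 library left out, which also drops stage as a term, the log2 difference of DPT ranged from -2.97 to -1.36.

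Between stages, 3 of the 7 genes were called by limma, all higher at Es22, beside 2.66% of all rows called in that direction and 3.13% in either. They were OGN (log2 difference 1.71, standard error 0.15, adjusted p = 0.015), DPT (1.53, standard error 0.16, adjusted p = 0.018) and BGN (1.02, standard error 0.15, adjusted p = 0.030). LUM (1.52, standard error 0.29, adjusted p = 0.054) and PRELP (1.11, standard error 0.20, adjusted p = 0.051) lay just outside the threshold, and BGN did so with libraries rescaled to their upper quartile (adjusted p = 0.056). In edgeR 5 of the 7 were called, with LUM (adjusted p = 0.021) and PRELP (adjusted p = 0.028) added, beside 4.48% of all rows. By the rule of size in both regions 3 genes, LUM, DPT and OGN, were at least 2-fold higher at Es22, beside 3.26% of all rows, and 6 of the 7 were higher in both regions by any amount, beside 34.3% of all rows. The 7 log2 differences had a median of 1.10 in dorsal dermis and of 1.33 in ventral dermis, against -0.01 and 0.01 over all rows tested. Without an intensity trend limma called 0 of the 7 genes between stages (6 at an unadjusted p under 0.05). The adjusted p was 0.061 for both LUM and DPT. That fit called 0 of all rows tested (1944 at an unadjusted p under 0.05). With any 1 library left out, which also drops region as a term, the log2 difference ranged from 0.98 to 2.06 for LUM and from 0.40 to 2.65 for DPT.

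The TMM factors differed between libraries, at 0.787 in Es22 dorsal, 0.904 in Es22 ventral, 1.10 in Es19 dorsal and 1.27 in Es19 ventral dermis. When reads were scaled by library totals without these factors, the median of all rows moved by -0.43 in dorsal and -0.45 in ventral dermis between stages and by -0.18 at Es22 and -0.19 at Es19 between regions. On that log2 scale LUM was 1.02 and 1.04 higher at Es22 in dorsal and ventral dermis and 0.86 and 0.88 higher in dorsal dermis at Es22 and Es19, so it no longer met the 2-fold rule between regions. DPT was still lower in dorsal dermis, with log2 differences of -2.44 at Es22 and -2.29 at Es19. Between stages DPT was 0.97 higher at Es22 in dorsal and 1.12 in ventral dermis, so it no longer met the 2-fold rule between stages, and 2 of the 7 genes did.

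**Figure D2:**
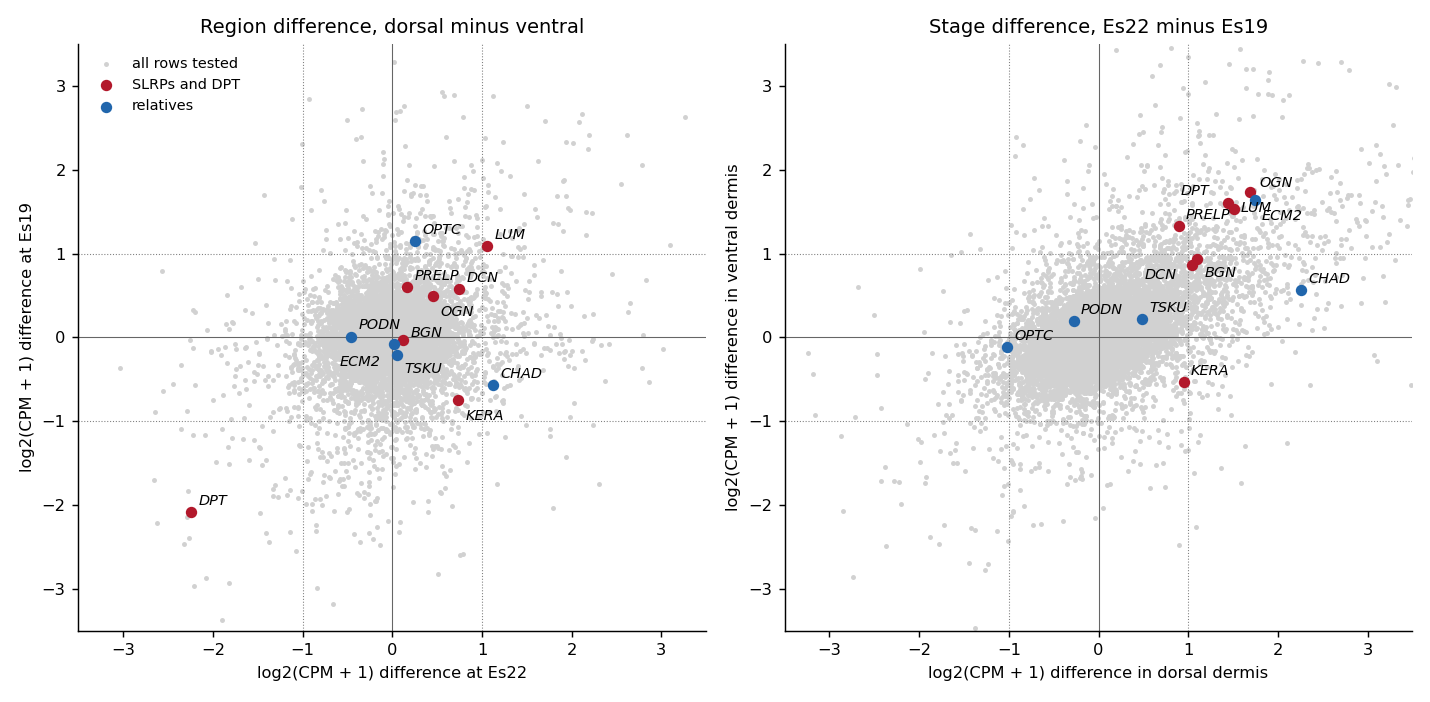
Differences in log2(CPM + 1) of single rows, dorsal minus ventral at Es22 and Es19 (left) and Es22 minus Es19 in dorsal and ventral dermis (right), with dotted lines at 2-fold and grey points for all rows tested, except 15 and 56 rows beyond 3.5 on an axis. LUM and DPT sit in opposite corners on the left, at 1.06 and 1.09 for LUM and -2.24 and -2.08 for DPT, and close together on the right, while KERA changes sign in both panels.

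LUM and DPT had nearly the same ratio between stages and opposite region differences. The ratio of LUM to DPT within a library was thus close between stages and far apart between regions. This ratio of reads does not depend on how the libraries are scaled, and its size depends on the lengths of both transcripts. There were 255 LUM reads per DPT read in Es22 dorsal dermis (95% interval 233 to 280) and 25.4 in Es22 ventral dermis (24.3 to 26.6). At Es19 there were 254 in dorsal (221 to 294) and 27.0 in ventral dermis (25.3 to 28.7). The intervals of the same region overlapped between stages, and those of different regions did not.

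OGN (osteoglycin, an SLRP first described in bone and cornea) followed LUM in its order of libraries. It stood at 1038 CPM in Es22 dorsal and 759 CPM in Es22 ventral dermis, and at 321 CPM in Es19 dorsal and 228 CPM in Es19 ventral dermis. The Es22 to Es19 ratio was 3.23 in dorsal (95% interval 3.12 to 3.35) and 3.33 in ventral dermis (3.19 to 3.47), the highest of the 7 genes in each region. Between regions its log2 difference was 0.47 (limma adjusted p = 0.50), with dorsal to ventral ratios of 1.37 at Es22 (1.33 to 1.41) and 1.41 at Es19 (1.35 to 1.48).

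PRELP was also highest in Es22 dorsal dermis. It stood at 1696 CPM in Es22 dorsal and 1512 CPM in Es22 ventral dermis, and at 913 CPM in Es19 dorsal and 601 CPM in Es19 ventral dermis. Its dorsal to ventral ratio was 1.12 at Es22 (95% interval 1.10 to 1.15) and 1.52 at Es19 (1.48 to 1.56). Without TMM factors the log2 difference at Es22 turned to -0.03, and that at Es19 was 0.40.

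BGN, a proteoglycan with paired glycosaminoglycan chains, rose between stages with little difference between regions. It stood at 327 CPM in Es22 dorsal and 301 CPM in Es22 ventral dermis, and at 152 CPM in Es19 dorsal and 156 CPM in Es19 ventral dermis. Both Es22 libraries were above both Es19 libraries, with Es22 to Es19 ratios of 2.15 in dorsal (95% interval 2.03 to 2.27) and 1.93 in ventral dermis (1.82 to 2.03). The dorsal to ventral ratio was 1.09 at Es22 (1.04 to 1.14) and 0.975 at Es19 (0.918 to 1.04). The Es19 ratio depended on the TMM factors. As shares of reads, without these factors, BGN took 0.0168% in Es19 dorsal (0.0161% to 0.0176%) and 0.0199% in Es19 ventral dermis (0.0191% to 0.0207%). Its fitted region difference was 0.04 (limma adjusted p = 1.0) and took the other sign, -0.16, without TMM factors.

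DCN, which in other vertebrates is an abundant proteoglycan of dermis, had few reads in the row that bears its symbol. It had 54 reads in Es22 dorsal and 26 in Es22 ventral dermis, and 26 in Es19 dorsal and 15 in Es19 ventral dermis, which is 5.19, 2.68, 2.01 and 1.02 CPM. The order of libraries was that of LUM, and it was not called in either comparison (limma adjusted p = 0.62 by region and 0.12 by stage). Its Es22 to Es19 ratio was 2.58 in dorsal (95% interval 1.59 to 4.29) and 2.64 in ventral dermis (1.34 to 5.35). Within libraries there were 2144 LUM reads per DCN read in Es22 dorsal (1643 to 2854), 1995 in Es22 ventral (1361 to 3054), 1947 in Es19 dorsal (1328 to 2980) and 1812 in Es19 ventral dermis (1098 to 3238). All 4 intervals overlapped. Each row is a transcript record, and the part of DCN that its record covers was not known here.

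KERA, best known as a keratan sulphate proteoglycan of the cornea, had region differences in opposite directions at the 2 stages, each beyond counting error. It stood at 161 CPM in Es22 dorsal and 96.2 CPM in Es22 ventral dermis, and at 82.8 CPM in Es19 dorsal and 139 CPM in Es19 ventral dermis. The dorsal to ventral ratio was 1.67 at Es22 (95% interval 1.54 to 1.81) and 0.594 at Es19 (0.551 to 0.640). Between stages the ratio was 1.94 in dorsal (1.80 to 2.10) and 0.690 in ventral dermis (0.638 to 0.745). The gap between its log2 region differences at Es22 and Es19 was 1.48, and 96.9% of all rows tested had a smaller gap. For LUM the gap was -0.03, with 5.72% of rows below it in size, and the median size over all rows was 0.30. With 1 library per region and stage, no test of this change of direction was possible.

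**Figure D3:**
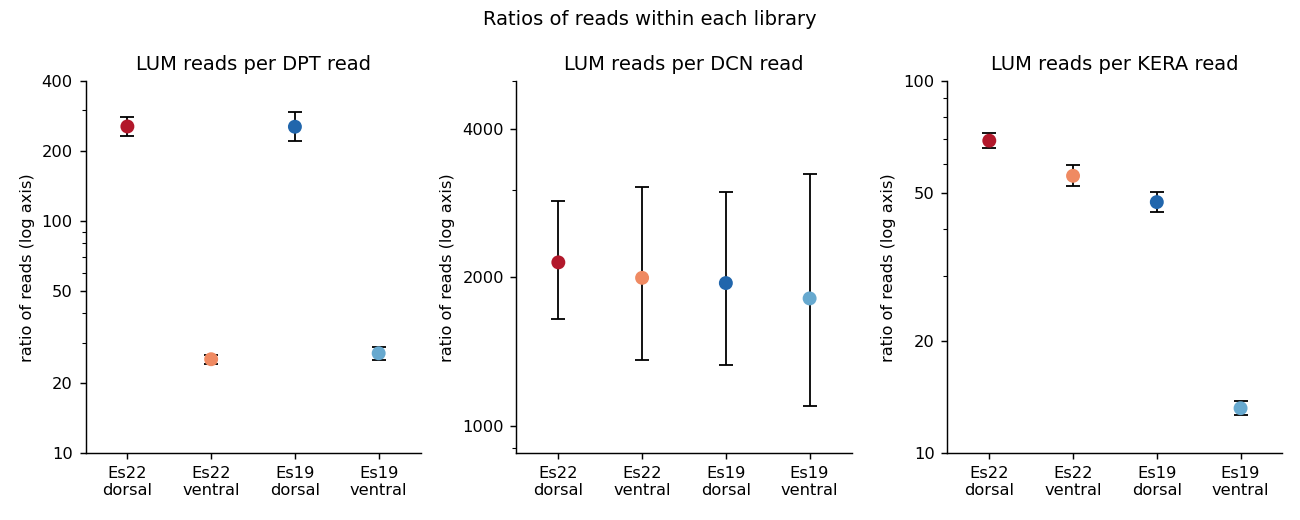
LUM reads per read of DPT, DCN and KERA in each library (log axes), with exact 95% binomial intervals for counting error. LUM to DPT is 255 and 254 in dorsal against 25.4 and 27.0 in ventral dermis, the intervals for DCN overlap in all 4 libraries, and LUM to KERA is lowest in Es19 ventral dermis, at 13.2.

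In the RefSeq annotation of alligator assembly rAllMis1, several of these genes lie side by side. EPYC, KERA, LUM and DCN follow each other in that order as coding genes, as do OGN, OMD, ASPN and ECM2, and FMOD, PRELP and OPTC. Each of the 3 groups holds at least 1 gene with no row under its symbol. Genes of a group agreed in some cases and not in others. DCN, next to LUM, had the order of libraries of LUM at few reads, and OGN and ECM2 were both called higher at Es22. KERA differed from LUM in its order of libraries, and OPTC from PRELP. KERA, next to LUM, gave 69.2 LUM reads per KERA read in Es22 dorsal (95% interval 65.9 to 72.6) and 55.6 in Es22 ventral dermis (52.2 to 59.4), and 47.3 in Es19 dorsal (44.5 to 50.3) and 13.2 in Es19 ventral dermis (12.6 to 13.8).

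Of a list of 9 other SLRPs and related leucine-rich repeat proteins, 5 had a row. Limma called 1 of them between stages, beside 3.13% of all rows, and 0 between regions, beside 0.234% (0 of the 5 also at an unadjusted p under 0.05, and 0 by edgeR). The called gene was ECM2, an extracellular matrix protein with leucine-rich repeats that shares a cluster with OGN. ECM2 stood at 866 CPM in Es22 dorsal and 853 CPM in Es22 ventral dermis, and at 258 CPM in Es19 dorsal and 274 CPM in Es19 ventral dermis (log2 difference between stages 1.69, standard error 0.15, adjusted p = 0.015). Reads of OGN per read of ECM2 were 1.20 in Es22 dorsal (95% interval 1.17 to 1.23) and 0.889 in Es22 ventral dermis (0.862 to 0.918), against 1.24 (1.19 to 1.30) and 0.833 (0.796 to 0.873) in Es19 dorsal and Es19 ventral dermis.

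PODN (podocan) ranged from 117 to 161 CPM over the 4 libraries, with Es22 to Es19 ratios of 0.824 in dorsal (95% interval 0.766 to 0.887) and 1.14 in ventral dermis (1.07 to 1.22). Without TMM factors its share of reads was lower at Es22 in both regions. OPTC (opticin, known from the vitreous of the eye) had 6.66 CPM in Es19 dorsal dermis and from 2.17 to 2.79 CPM in the other libraries. CHAD (chondroadherin, a cartilage protein) had 78 reads, or 7.49 CPM, in Es22 dorsal dermis and 2.89 CPM in Es22 ventral dermis, against 0.774 and 1.63 CPM in Es19 dorsal and Es19 ventral dermis. TSKU (tsukushi, which modulates BMP signalling in chick and frog embryos) ranged from 4.02 to 6.05 CPM. None of these 4 genes was called by limma or edgeR in either comparison.

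Listed collagen genes (fibrillar, fibril-associated and type VI) were higher at Es22 in both regions for 9 of the 9 with a row, of 13 listed, beside 34.3% of all rows. COL2A1, a fibrillar collagen, was listed with cartilage instead, and was 0.07 higher at Es22 in dorsal and 0.40 in ventral dermis. Limma called 1 of them, beside 2.66% of all rows. This was COL12A1, a fibril-associated collagen (log2 difference 1.03, standard error 0.15, adjusted p = 0.031). The median difference of the 9 was 1.12 in dorsal dermis and 0.79 in ventral dermis. The count of 9 depends on the TMM factors. COL6A3 was 0.37 higher in dorsal and COL11A2 0.12 higher in ventral dermis. Both are smaller in size than the all-row shift without TMM factors, -0.43 in dorsal and -0.45 in ventral dermis. COL1A1 stood at 244337 CPM in Es22 dorsal and 208400 CPM in Es22 ventral dermis, and at 108686 CPM in Es19 dorsal and 49609 CPM in Es19 ventral dermis. COL1A2 stood at 179383 and 134093 CPM at Es22 and at 73047 and 36703 CPM at Es19 in the same order of regions. Both had the order of libraries of LUM, and limma gave adjusted p-values of 0.56 and 0.49 between stages. Their standard errors, 1.38 and 1.14, include the prior variance for genes of such high CPM. COL3A1 had no row under its symbol. Their dorsal to ventral ratio differed between stages more than that of LUM, with 1.17 at Es22 and 2.19 at Es19 for COL1A1. There were 0.0455 LUM reads per COL1A1 read in Es22 dorsal and 0.0257 in Es22 ventral dermis, and 0.0360 in Es19 dorsal and 0.0372 in Es19 ventral dermis, so that Es22 ventral dermis stood lowest.

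Genes that process and cross-link collagen were higher at Es22 in both regions for 10 of 10 with a row, of 19 listed, beside 34.3% of all rows. This count depends on the TMM factors. LOXL1 and PLOD3 were 0.11 and 0.36 higher in dorsal dermis, and PCOLCE2 and LOXL2 0.16 and 0.24 in ventral dermis. These are smaller in size than the all-row shift without TMM factors, -0.43 in dorsal and -0.45 in ventral dermis. Of the 10, limma called 3, beside 2.66% of all rows. These were PLOD1 (lysyl hydroxylase, log2 difference 1.26, adjusted p = 0.029), PCOLCE (an enhancer of procollagen cleavage, 1.60, adjusted p = 0.030) and LOX (lysyl oxidase, 0.82, adjusted p = 0.046). Of 13 matrix partners with a row, 2 were called, both higher at Es22, beside the same 2.66%, and they were FBN1 (fibrillin, 1.41, adjusted p = 0.028) and THBS2 (thrombospondin 2, 1.80, adjusted p = 0.027). SPARC, a collagen-binding glycoprotein, also met the 2-fold rule, with 25690 and 18810 CPM in Es22 dorsal and Es22 ventral dermis, against 10310 and 7550 CPM in Es19 dorsal and Es19 ventral dermis. By any amount, 6 of the 13 partners were higher at Es22 in both regions, beside 34.3% of all rows, and 5 were lower in both. The median over the 13 partners was 0.28 in dorsal dermis and 0.38 in ventral dermis.

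The chains of SLRPs are built by other enzymes, whose genes were listed by chain. Of 14 genes of chondroitin and dermatan sulphate synthesis with a row, of 22 listed, limma and edgeR called 0 between stages beside 3.13% of all rows in limma (2 at an unadjusted p under 0.05 in each, beside 20.6% of all rows in limma), and their median was 0.04 in dorsal dermis and 0.25 in ventral dermis. By any amount 8 of these 14 genes were higher at Es22 in both regions, beside 34.3% of all rows, and 2 were lower. Among 4 keratan sulphate genes with a row, of 10 listed, 2 were higher and 1 lower in this way. Limma called 1 of the 4, lower at Es22, beside 0.469% of all rows in that direction. This was CHST1, a keratan sulphate sulphotransferase, which fell to 2.02 and 4.85 CPM in Es22 dorsal and Es22 ventral dermis, against 8.98 and 26.7 CPM in Es19 dorsal and Es19 ventral dermis (log2 difference -1.98, standard error 0.26, adjusted p = 0.028). Between regions limma and edgeR called 0 genes of the 5 lists, beside 0.234% and 0.547% of all rows. At an unadjusted p under 0.05 limma had 2 of 9 collagens, 4 of 10 processing genes, 4 of 13 partners, 1 of 14 chondroitin and dermatan sulphate genes and 1 of 4 keratan sulphate genes, beside 7.55% of all rows.

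**Figure D4:**
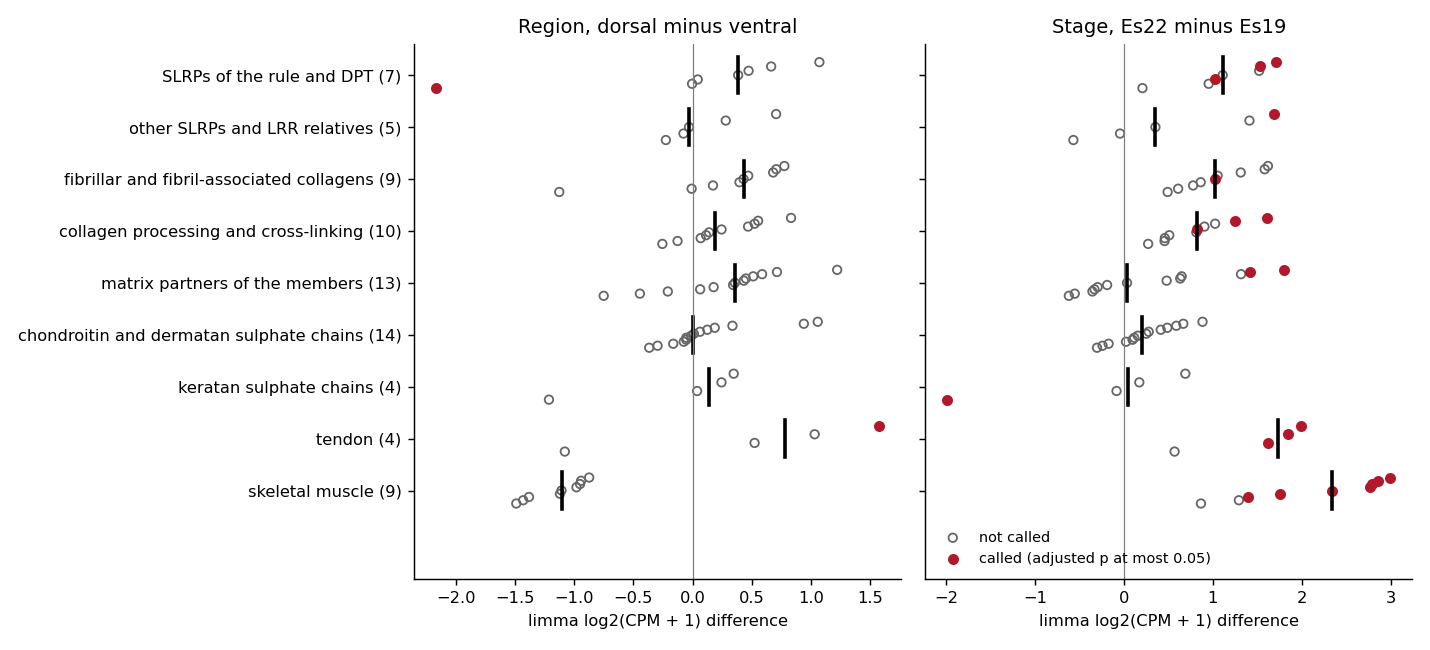
Limma log2(CPM + 1) differences of single genes by list, for region (left) and stage (right), with the number of genes with a row in brackets, filled points for adjusted p of at most 0.05 and black bars at the medians. The set of 7 genes has a median stage difference of 1.11 and the collagens one of 1.03. The chondroitin and dermatan sulphate list has a median of 0.20 and the keratan sulphate list one of 0.05, with CHST1 alone called.

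Markers of other tissues moved with some of these values. Tendon markers, of which 4 of 5 had a row and none stood at 0 reads, summed to 1764 and 1050 CPM in Es22 dorsal and Es22 ventral dermis against 453 and 288 CPM at Es19. TNMD, MKX and THBS4 had the order of libraries of LUM, while EGR1, which many cell types also express, was higher in ventral dermis, with 177 and 558 CPM in Es22 dorsal and Es22 ventral dermis against 72.4 and 104 CPM in Es19 dorsal and Es19 ventral dermis. TNMD (tenomodulin) stood at 1396 CPM in Es22 dorsal and 402 CPM in Es22 ventral dermis, and at 301 CPM in Es19 dorsal and 116 CPM in Es19 ventral dermis. By any amount 3 of the 4 tendon markers were higher in dorsal dermis at both stages, beside 24.5% of all rows, and 1 was lower. Between regions 1 of the 4 was called, beside 0.234% of all rows in limma. This was TNMD (log2 difference 1.58, limma adjusted p = 0.048, edgeR adjusted p = 0.019). Between stages limma called 3 of the 4, all higher at Es22, beside 2.66%. SCX, the transcription factor that defines tendon cells, had no row under its symbol. Skeletal muscle markers, 9 of 17 with a row and none at 0 reads, were highest where DPT was, with sums of 507 and 1691 CPM in Es22 dorsal and Es22 ventral dermis against 196 and 261 CPM at Es19. By any amount, 8 of the 9 were lower in dorsal dermis at both stages, beside 25.3% of all rows. At least 2-fold lower at both stages were 2 of them, MYOG and MYL1, beside 0.469%. Between regions limma called 0 of the 9 and edgeR 2, both lower in dorsal dermis, beside 0.234% and 0.547% of all rows. The median dorsal minus ventral log2 difference of the 9 was -1.74 at Es22 and -0.46 at Es19, and the difference of DPT was -2.24 and -2.08. Red blood cell markers, 5 of 15 with a row and none at 0 reads, were also lower in dorsal dermis at both stages for 4 of 5, beside 25.3% of all rows. Limma called 4 of 5 higher at Es22, beside 2.66% of all rows. Their sums were 8460 and 10280 CPM in Es22 dorsal and Es22 ventral dermis, against 508 and 1799 CPM in Es19 dorsal and Es19 ventral dermis. Most of each sum was HBA1, at 8092, 9774, 465 and 1701 CPM in the same order. Melanocyte markers, 3 of 7 with a row and none at 0 reads, were higher in dorsal dermis and at Es22 in all comparisons, beside 24.5% and 34.3% of all rows. Their sums were 467 and 133 CPM in Es22 dorsal and Es22 ventral dermis, against 176 and 97.7 CPM in Es19 dorsal and Es19 ventral dermis. Most of each sum was PMEL, at 353, 118, 163 and 96.6 CPM in the same order. TYRP1 stood at 55.9, 3.41, 8.51 and 0.339 CPM, and DCT at 58.1, 11.7, 3.87 and 0.746 CPM. Endothelial markers were higher at Es22 in both regions for 9 of 10, macrophage markers for 5 of 5, beside 34.3% of all rows. For Schwann cell and neuron markers this was 3 of 4, for cartilage and bone 2 of 8 and for cell cycle 1 of 10. Smooth muscle and pericyte markers were so for 4 of 4, and 3 of 4 were lower in dorsal dermis at both stages, beside 25.3%. Some of these stage differences were small. In ventral dermis CDH5, KDR and TIE1, of the endothelial markers, were 0.26, 0.10 and 0.19 higher at Es22. These are smaller in size than the all-row shift without TMM factors, -0.45 in ventral dermis. Dermal fibroblast markers, 8 of 12 with a row, were higher in dorsal dermis at both stages for 6 of 8 and lower for 0. This was beside 24.5% and 25.3% of all rows. For the collagens these counts were 7 and 0 of 9, and for the matrix partners 9 and 2 of 13. The fibroblast list shares COL1A1, COL1A2 and FBN1 with them. Counts by any amount were not repeated for the lists without TMM factors. The part of fibroblast, tendon, muscle, blood, pigment, epidermal or the other listed cells in the values of the set was not tested. In bulk tissue fewer cells of a type and less RNA per cell cannot be told apart.

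The genes whose profile over the 4 libraries lay closest to LUM, by Euclidean distance of centred log2(CPM + 1) among 5938 other named genes with a mean of at least 10 CPM, were MICALL2 (distance 0.18), LECT1 (0.20), AQP3 (0.28), PDLIM4 (0.40) and ADAMTS6 (0.41). LECT1 encodes chondromodulin, a relative of tenomodulin, and stood at 169.7 and 95.7 CPM in Es22 dorsal and Es22 ventral dermis, against 61.5 and 31.6 CPM at Es19. Among the set, OGN was the 29th closest to LUM (0.63) and PRELP the 68th (0.82). The gene closest to DPT was A2ML1 (0.18), a protease inhibitor of the alpha-2-macroglobulin family, at 32.6 and 162 CPM in Es22 dorsal and Es22 ventral dermis, against 12.8 and 48.2 CPM at Es19. The next were a row labelled DES.1 (1.02), TGM2 (1.09), RBFOX1L (1.10) and ANGPTL2 (1.20), so that only A2ML1 lay within 1 unit of DPT. DPT lay far from LUM, at rank 5896 of the 5938. These distances rest on 4 values each and are given as a description.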

How the data were processed

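RNA of dermis was sequenced as single reads from TruSeq libraries, 1 per region and stage. The authors deposited CPM values (reads scaled to standard library size) with TMM normalization, a normalized signal whose column sums differ between libraries. For alignment the study's methods give STAR. HTSeq, edgeR, Partek (version 3) and TopHat2 (version 2.1.0) stand in the submitters' processing notes, and no source used here gives the annotation version. Each column was divided by the value of 1 read (0.0961, 0.103, 0.0774 and 0.0679 CPM in Es22 dorsal, Es22 ventral, Es19 dorsal and Es19 ventral dermis), which gave whole reads within 0.05 for 99.8% to 99.95% of values. A count of 0 allows up to 3 reads, or 0.204 to 0.310 CPM. Every row reached at least 1.03 unnormalized CPM in its second-highest library, so rarer transcripts stand outside the table. There were 1900 rows named by a gene number alone and 300 by a LOC symbol, so a gene with no row under its symbol may stand there unnamed.

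limma (version 3.58.1, intensity trend in the prior variance, Benjamini-Hochberg adjustment over 10236 rows at 0.05) was fitted on log2(CPM + 1). The quasi-likelihood test of edgeR (version 4.0.16) used recovered reads and the same terms, and called 56 rows between regions and 565 between stages. Alternatives were pseudocounts of 0.1 and 5, other filters, rescalings, a 4-fold rule, single terms and each library left out. Scaling by library totals without TMM factors and limma without a trend were added after the data were seen. Named genes are all symbols of the set and its relatives with a row, COL1A1, COL1A2 and COL3A1, list members called or 2-fold apart in both comparisons (at most 6 a list), and the 5 profiles nearest LUM and DPT. The set and lists were chosen with earlier results of these data known. Both tests were also run on simulated reads of fixed dispersion, a simpler setting than these data, and no result here rests on that run. Scripts ran in R 4.3.3 and in Python 3.11.15 with scipy 1.17.1, pandas 2.3.3, matplotlib 3.10.9 and numpy 2.4.6. No sequences are shown here.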

Additional observations from a re-analysis of the deposited data

Results flagged for a closer look

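KERA had region differences in opposite directions at the 2 stages and stage differences in opposite directions in the 2 regions, beyond counting error in all 4 comparisons. Its dorsal to ventral ratio was 1.67 at Es22 and 0.594 at Es19, and its Es22 to Es19 ratio was 1.94 in dorsal and 0.690 in ventral dermis. PODN had an Es22 to Es19 ratio of 0.824 in dorsal dermis and of 1.14 in ventral dermis. This change of direction depended on the TMM factors. Without them the share of reads of PODN was lower at Es22 in both regions. It was 0.00921% against 0.0157% in dorsal and 0.0146% against 0.0180% in ventral dermis. KERA kept opposite stage differences without TMM factors, at log2 0.47 in dorsal and -1.02 in ventral dermis. Neither the KERA nor the PODN difference was tested, since each region and stage had 1 library.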

How the results depend on the processing

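Between regions limma called 24 rows. It called 40 with a pseudocount of 0.1, 8 with 5, and 0 with libraries rescaled to their upper quartile (730 at an unadjusted p under 0.05), without stage as a term (256) or without an intensity trend (801). edgeR called 56. DPT, the 1 gene of the set called, was lost in the last 3 of these limma fits, which called 0 of the set. Between stages limma called 320 rows (85.0% higher at Es22), and 486 with a pseudocount of 0.1, 144 with 5, 89 with upper-quartile scaling, 0 without region as a term (1973) or without a trend (1944), and edgeR 565. Without TMM factors it called 3134 rows (11.4% higher at Es22), and between regions 31 (45.2% higher in dorsal dermis, against 58.3%). Of the set 3 genes were called between stages, 5 with a pseudocount of 0.1, with a mean of at least 5 CPM and by edgeR, 2 with upper-quartile scaling (BGN lost, adjusted p = 0.056), and 0 without region as a term or without a trend. At least 2-fold apart in both region comparisons were 109 rows, with 205 and 44 at pseudocounts of 0.1 and 5 and 22 at 4-fold, and 2 of the set, with 1 (DPT) without TMM factors and 1 at 4-fold. Without TMM factors 37.2% of these rows were higher in dorsal dermis, against 56.0%. Between stages these were 389 rows, 599, 185 and 57, and 3 of the set, with 0 at 4-fold and 2 (without DPT) without TMM factors. Without TMM factors 40.0% were higher at Es22, against 85.9%.

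With 1 library left out, and the other term with it, limma called 0 rows (from 160 to 556 at an unadjusted p under 0.05) and 0 of the set between regions, and from 0 to 75 rows and 0 of the set between stages. The differences of BGN, OGN, PRELP and KERA changed sign in some fits. A fit with a library left out also drops the other term, so a gene's stage difference enters its region estimate, and the reverse. The ranges with a library left out therefore mix both differences. BGN by region was -0.16 without TMM factors and ranged from -0.51 to 0.59 with a library left out, and OGN by region ranged from -0.39 to 1.34, PRELP from -0.28 to 1.05 and KERA from -0.48 to 0.47. KERA by region was 0.0040 after rescaling by the median ratio, and by stage it was -0.28 without TMM factors and ranged from -0.16 to 0.58 with a library left out. LUM and DPT kept their direction under all alternatives run, but with a library left out LUM ranged from 0.30 to 1.84 by region and from 0.98 to 2.06 by stage, and DPT from -2.97 to -1.36 by region and from 0.40 to 2.65 by stage. No paired analysis was possible because the labels give 1 library per region and stage and no replicate numbers. Counting error is small beside these shifts except for DCN, OPTC, CHAD and TSKU, which had at most 86 reads in a library.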
